A study of Mus musculus with 10 samples.

Results

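Matrix metalloproteinases (MMPs) and their tissue inhibitors (TIMPs) were examined in spleen RNA from mice with and without proteoglycan-induced arthritis (PGIA). The 8 genes were 5 proteases (Mmp2, Mmp3, Mmp13, Mmp14 and Mmp19) and 3 inhibitors (Timp1, Timp2 and Timp3), chosen by name. All probe sets that carry 1 of these symbols alone were taken, which gave 20 of the 45037 probe sets other than controls. The neutrophil proteases Mmp8 and Mmp9 were not included. All 10 mice were female BALB/c mice that had been injected intraperitoneally with cartilage proteoglycan (PG) in DDA adjuvant, so the series holds no naive spleen. There were 2 old arthritic mice (both 9 months by the labels), 2 old non-arthritic mice (7 and 5 months), 2 young arthritic mice (5 and 4 months) and 4 young non-arthritic mice (3, 3, 2 and 1 months), with 1 Affymetrix array per mouse. In its antibody table the paper gives age as that at the first PG injection. Whether the labelled ages here are those at the first injection or at sacrifice was not established. Within each age class the arthritic mice were the older ones. Arthritis was therefore also tested together with age in months, which is called the comparison at equal age below. That fit assumes 1 straight-line slope with age for all mice. Only the age of 5 months was shared by an arthritic and a non-arthritic mouse. Mean ages were 6.75 months in arthritic and 3.5 months in non-arthritic mice, so the fitted arthritis value depends on the fitted slope. RNA came from a piece of whole spleen, in which fewer cells of a type and less RNA per cell cannot be told apart.

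MMPs are zinc enzymes that cleave collagens and other matrix proteins. They are made as inactive proenzymes, are often switched on by other proteases, and are blocked by TIMPs, which bind the active site. In arthritic joints, synovial fibroblasts and chondrocytes are known sources of collagenase and stromelysin. In the spleen, reticular fibroblasts, endothelium and macrophages maintain the matrix of the red and white pulp. Signals below are log2 values from robust multi-array average (RMA), where a difference of 1 is a change of 2-fold. The median signal of an array was 6.88 to 6.96. A probe set was kept for the tests if it exceeded the array median in 2 or more arrays, with a threshold of 0.05 on the Benjamini-Hochberg adjusted p from limma over all 23805 kept probe sets. Of the 20 probe sets, 16 were kept, for 6 of the 8 genes.

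Mmp13 and Mmp19 lay below the array median and did not enter the tests. The only Mmp13 probe set was below the median in all 10 arrays, and so was 1 of the Mmp19 probe sets (1421977_at). The other Mmp19 probe set (1421976_at) was above the median in 1 array. Mmp3 lay near the median and exceeded it in 8 arrays. Every kept probe set of Mmp2, Mmp14, Timp1, Timp2 and Timp3 was above the median in all 10 arrays, and 1 of the 6 Timp2 probe sets (1437081_at) was below it in all of them. Whether the dim probe sets measured a transcript above background was not tested.

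**Figure D1:**
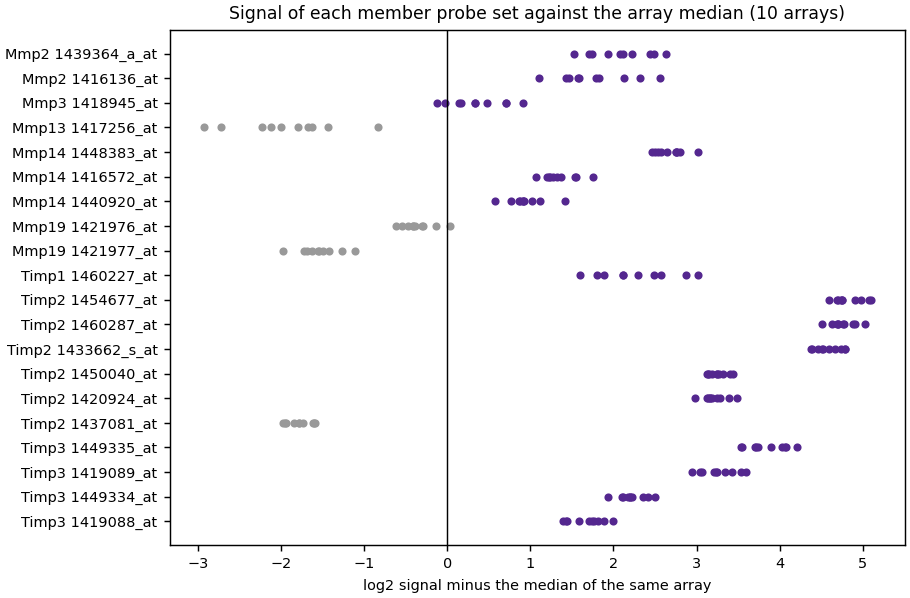
Log2 signal of each of the 20 probe sets minus the median of the same array (x-axis, log2 units), with 1 point per array and 10 arrays per row, where grey marks the 4 probe sets left out of the tests. The probe sets of Mmp13 and Mmp19 and 1 of Timp2 lie below the median, except for 1421976_at of Mmp19 in 1 array, and that of Mmp3 straddles it.

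The sequences before the transcription start are described because 2 of the proteases share elements there that the other 4 sequences lack. That contrast was the reason for showing them, so it is a description and not the outcome of a test. RefSeq starts (build GRCm38.p6) were found for 6 of the 8 genes, and not for Mmp2 and Mmp19. In the 250 bases before the start, the AP-1 motif TGANTCA, which reads the same on both strands apart from its middle base, was present in Mmp3 and Mmp13 and in 6.75% of the 32851 sequences of this length in the table. The same 2 genes held TATAAA on either strand, against 12.4% of all sequences, and 1.21% of all sequences held both motifs. Mmp14, Timp1, Timp2 and Timp3 held neither, but all 4 held the GC box GGGCGG on either strand, which 32.7% of all sequences contain. The motifs did not overlap each other. A match is a run of letters and was not tested for binding. The 4 sequences below run 5′ to 3′ and end at the base before the start, and capitals mark these 3 motifs.
Mmp3 (chr9:7445572-7445821, plus strand): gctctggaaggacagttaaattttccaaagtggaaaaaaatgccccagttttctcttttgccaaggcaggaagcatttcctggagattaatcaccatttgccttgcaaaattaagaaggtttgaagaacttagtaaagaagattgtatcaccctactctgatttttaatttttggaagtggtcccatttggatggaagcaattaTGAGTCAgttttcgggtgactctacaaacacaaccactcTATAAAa
Mmp13 (chr9:7272264-7272513, plus strand): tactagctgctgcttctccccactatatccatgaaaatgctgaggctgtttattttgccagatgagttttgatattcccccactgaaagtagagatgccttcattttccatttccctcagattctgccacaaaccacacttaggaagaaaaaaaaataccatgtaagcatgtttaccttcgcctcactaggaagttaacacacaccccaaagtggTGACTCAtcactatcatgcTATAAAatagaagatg
Timp1 (chrX:20869916-20870165, plus strand): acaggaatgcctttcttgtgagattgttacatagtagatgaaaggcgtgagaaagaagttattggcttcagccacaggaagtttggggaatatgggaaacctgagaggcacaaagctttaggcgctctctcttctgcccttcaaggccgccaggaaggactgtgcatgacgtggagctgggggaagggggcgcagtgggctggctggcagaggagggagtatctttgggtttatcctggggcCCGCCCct
Timp3 (chr10:86300162-86300411, plus strand): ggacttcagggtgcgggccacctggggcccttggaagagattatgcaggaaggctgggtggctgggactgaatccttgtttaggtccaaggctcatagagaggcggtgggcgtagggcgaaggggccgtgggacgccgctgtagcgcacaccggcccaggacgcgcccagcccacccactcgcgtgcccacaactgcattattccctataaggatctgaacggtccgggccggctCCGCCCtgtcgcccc
In Mmp3 the AP-1 motif began 46 bases before the start and TATAAA 7 bases before it, and in Mmp13 they began 35 and 16 bases before it. The GC box began 8 bases before the start in Timp1 and 15 bases before it in Timp3. The stretch of Timp3 held 18 CpG and that of Timp1 6, against 1 each in Mmp3 and Mmp13 and a median of 6 over all sequences.

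Among the proteases, the collagenase Mmp13, which cleaves fibrillar collagen, had the widest spread of the members, 2.07 on the log2 scale, with all values below the array medians. Its signals were 4.96 and 5.22 in old arthritic mice, against 4.02 and 4.23 in old non-arthritic mice, and 6.09 and 5.46 in young arthritic mice, against 4.76, 5.10, 5.32 and 4.72 in young non-arthritic mice. In both age classes every arthritic mouse lay above every non-arthritic mouse, although old arthritic and young non-arthritic mice overlapped. Among kept probe sets 35.3% separated this way in old mice and 25.6% in young mice. The shares among dim probe sets were not computed within the age classes. In a fit of all 45037 probe sets, without a filter, the log2 difference at equal age was 1.26 (standard error 0.23, adjusted p = 0.00679 from limma), that in old mice was 0.97 (standard error 0.24, adjusted p = 0.0472) and that in young mice was 0.80 (standard error 0.21, adjusted p = 0.0453). In that fit 12.2% of all probe sets passed at equal age, 5.06% in old mice and 7.07% in young mice. Over mice aged 4 months or more the value was 1.31 (standard error 0.21, adjusted p = 0.00779), where 8.87% of all passed. Passing was more frequent among dim probe sets, with 17.7% of the 21232 that failed the filter at equal age. Of these dim probe sets 8.05% passed in old mice, 11.7% in young mice and 13.2% over mice aged 4 months or more.

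The stromelysin Mmp3, which degrades proteoglycans and activates other MMPs, had log2 signals of 7.29 and 7.37 in old arthritic mice, against 7.09 and 6.92 in old non-arthritic mice, and 7.84 and 7.61 in young arthritic mice, against 7.05, 7.23, 7.65 and 6.84 in young non-arthritic mice. Every old arthritic mouse was above both old non-arthritic mice, and in young mice the groups overlapped because young non-arthritic replicate 3 stood at 7.65. The log2 difference at equal age was 0.55 (standard error 0.19), with an adjusted p of 0.125 from limma, and did not pass.

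The gelatinase Mmp2, which cleaves denatured collagen and basement membrane collagen, was measured by 2 kept probe sets that ran together over the arrays but gave opposite signs for arthritis. With 1439364_a_at the log2 signals were 8.67 and 8.97 in old arthritic mice, against 8.69 and 8.88 in old non-arthritic mice, and 9.42 and 9.02 in young arthritic mice, against 8.40, 9.11, 9.58 and 9.39 in young non-arthritic mice. With 1416136_at they were 8.07 and 8.34 in old arthritic mice, against 8.54 and 8.78 in old non-arthritic mice, and 8.71 and 8.46 in young arthritic mice, against 8.31, 9.02, 9.50 and 9.28 in young non-arthritic mice. The highest value of both probe sets was that of young non-arthritic replicate 3, and the groups overlapped in both except that the second placed both old arthritic mice below both old non-arthritic mice. The log2 differences at equal age were 0.34 (standard error 0.23, adjusted p = 0.416 from limma) and -0.17 (standard error 0.22, adjusted p = 0.682). No direction with arthritis is therefore given for Mmp2.

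Mmp14, the membrane-bound protease that activates proMmp2 together with Timp2, varied little. Its brightest probe set (1448383_at) had log2 signals of 9.46 and 9.69 in old arthritic mice, against 9.48 and 9.52 in old non-arthritic mice, and 9.94 and 9.53 in young arthritic mice, against 9.34, 9.66, 9.69 and 9.71 in young non-arthritic mice. The groups overlapped, and the highest value was that of young arthritic replicate 1. The 3 probe sets had log2 differences at equal age of 0.19 (standard error 0.13, adjusted p = 0.394 from limma), 0.30 (1416572_at, standard error 0.13, adjusted p = 0.199) and 0.44 (1440920_at, standard error 0.11, adjusted p = 0.0612). The first of these was 0.06 without young arthritic replicate 1 and 0.35 without young arthritic replicate 2. In the fit without a filter, where 12.2% of all probe sets passed, 1440920_at passed with the same difference (adjusted p = 0.0252 from limma). In young mice 1440920_at placed both arthritic mice, at 8.34 and 8.02, above all 4 non-arthritic mice, at 7.65, 7.81, 7.86 and 7.98. Of all kept probe sets 25.6% separated this way in young mice.

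Mmp19, a protease of endothelium and macrophages among other cells, lay at log2 signals of 6.66 and 6.60 in old arthritic mice, against 6.54 and 6.48 in old non-arthritic mice, and 6.79 and 6.93 in young arthritic mice, against 6.34, 6.50, 6.32 and 6.54 in young non-arthritic mice with its brighter probe set. All 4 arthritic mice were above all 6 non-arthritic mice. In the fit without a filter the log2 difference at equal age was 0.34 (standard error 0.10, adjusted p = 0.0467 from limma), beside the 17.7% of dim probe sets that passed there, and 14.3% of dim probe sets had no overlap in this direction. The dimmer probe set (1421977_at) gave 0.12 (standard error 0.16, adjusted p = 0.646), and in old mice it placed both arthritic mice, at 4.98 and 5.17, below both non-arthritic mice, at 5.41 and 5.33.

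**Figure D2:**
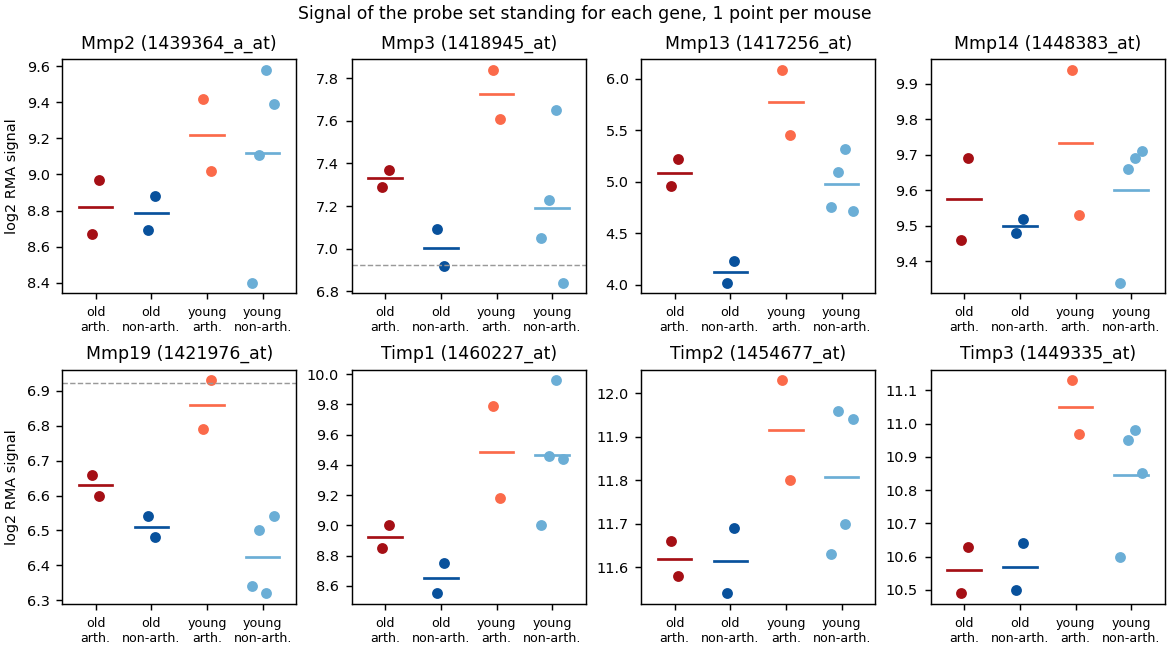
Log2 RMA signal (y-axis) of the probe set that stands for each of the 8 genes in the 4 groups (x-axis), where each point is 1 mouse, each line is the group mean and the dashed line is the mean of the array medians where it falls in the range. Young arthritic mice have the highest group mean in every panel, in Timp1 by little (9.49, against 9.47 in young non-arthritic mice). Mmp2, Mmp14, Timp1, Timp2 and Timp3 have lower means in both old groups than in both young groups.

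Among the inhibitors, Timp3, which is bound to the matrix and also inhibits ADAM proteases, held the only one of the 16 kept member probe sets that passed a test. With 1419089_at the log2 signals were 9.9997 and 10.12 in old arthritic mice, against 9.89 and 10.01 in old non-arthritic mice, and 10.46 and 10.49 in young arthritic mice, against 10.09, 10.31, 10.19 and 10.30 in young non-arthritic mice. The young arthritic mice were above all young non-arthritic mice, while the old arthritic mice overlapped the old non-arthritic mice and lay within or below the range of young non-arthritic mice. The 4 arthritic mice averaged 10.27 ± 0.24 (SD, n = 4) and the 6 non-arthritic mice 10.13 ± 0.17 (SD, n = 6). With age in the fit, Timp3 by this probe set rose by a log2 difference of 0.39 in arthritic mice (standard error 0.08, 1.31-fold, adjusted p = 0.0408 from limma). The value with age in the fit was larger than the difference of the means, and its slope with age was -0.08 per month (standard error 0.01, adjusted p = 0.466). At equal age 1 of the 16 member probe sets passed, while 2.26% of all kept probe sets did, and 1.81% did so with a higher value.

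The call of this probe set depended on the scaling and on single mice. The adjusted p for Timp3 (1419089_at) from limma was 0.172 after quantile normalization was applied again, with a log2 difference of 0.26, and 0.0629 with each array centred on its median, with 0.41. It was 0.117 with each array centred on the median of its kept probe sets, with 0.30. When single mice were left out, it was 0.055 (old arthritic replicate 2), 0.192 (old non-arthritic replicate 1), 0.123 (old non-arthritic replicate 2), 0.137 (young arthritic replicate 1), 0.234 (young arthritic replicate 2) and 0.0583 (young non-arthritic replicate 3). It stayed under the threshold without any of the other 4 mice, and the log2 difference stayed between 0.36 and 0.42 without any single mouse. The other Timp3 probe sets had log2 differences at equal age of 0.33 (1449335_at, standard error 0.11, adjusted p = 0.125), 0.23 (1449334_at, standard error 0.09, adjusted p = 0.187) and 0.20 (1419088_at, standard error 0.11, adjusted p = 0.307).

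Timp1, the secreted inhibitor that is induced by inflammatory cytokines, had log2 signals of 8.85 and 9.00 in old arthritic mice, against 8.55 and 8.75 in old non-arthritic mice, and 9.79 and 9.18 in young arthritic mice, against 9.00, 9.46, 9.96 and 9.44 in young non-arthritic mice. Both old non-arthritic mice were below all 4 young non-arthritic mice, and the old arthritic mice were above the old non-arthritic mice. The higher old arthritic mouse, at 8.9986, overlapped the lowest young mouse, at 8.9973. The mean was 8.65 ± 0.14 (SD, n = 2) in old non-arthritic mice and 9.47 ± 0.39 (SD, n = 4) in young non-arthritic mice. The log2 difference of old against young non-arthritic mice was -0.81 (standard error 0.25, unadjusted p = 0.00906 and adjusted p = 0.997 from limma). The slope per month was -0.16 (standard error 0.04, adjusted p = 0.466), and the log2 difference with arthritis at equal age was 0.52 (standard error 0.23, adjusted p = 0.218). Without young arthritic replicate 2 the last value was 0.87 (standard error 0.23, adjusted p = 0.229).

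Timp2, which inhibits most MMPs and takes part in proMmp2 activation, was measured by 5 kept probe sets. The brightest (1454677_at) had log2 signals of 11.66 and 11.58 in old arthritic mice, against 11.54 and 11.69 in old non-arthritic mice, and 12.03 and 11.80 in young arthritic mice, against 11.63, 11.96, 11.70 and 11.94 in young non-arthritic mice. The groups overlapped, with the top value in young arthritic replicate 1 and the bottom value in old non-arthritic replicate 1. Over the 5 kept probe sets, the log2 differences at equal age ran from 0.0036 (1433662_s_at, standard error 0.09) to 0.24 (1460287_at, standard error 0.08, adjusted p = 0.127 from limma), and none passed. Pearson correlations between these probe sets over the 10 arrays were 0.57 to 0.89, whereas the dim probe set 1437081_at had -0.54 to -0.23 with them.

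**Figure D3:**
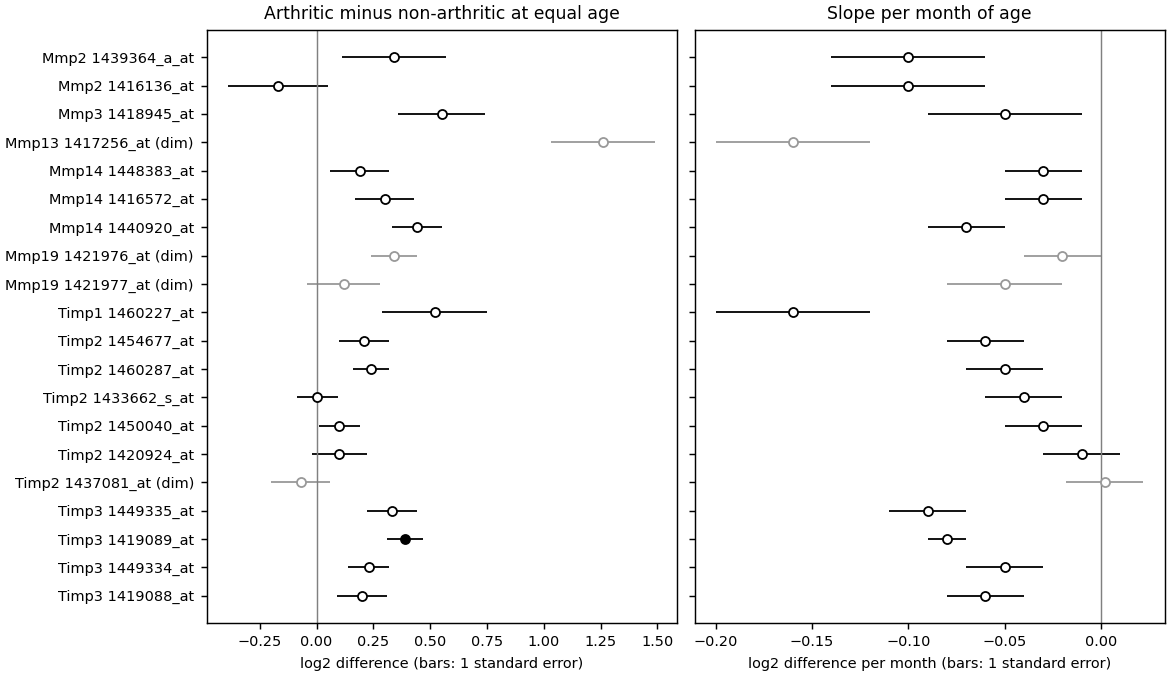
Log2 difference of arthritic minus non-arthritic mice of equal age (left) and slope per month of age (right) for the 20 probe sets, with bars of 1 standard error. The filled point is the kept Timp3 probe set that passed the threshold, and black open points are kept probe sets that did not pass. Grey points are dim probe sets from the fit without a filter and are drawn open whether or not they passed. Of these, Mmp13 and 1421976_at of Mmp19 passed in that fit on the left. Of the 16 kept probe sets, 15 lie above 0 on the left and 16 below 0 on the right.

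Over the members, the values at equal age were mostly higher in arthritic mice, in a series where most probe sets were. Of the 16 kept probe sets 15 had a higher fitted value, with a median of 0.23 on the log2 scale, against 68.5% and 0.09 over all 23805 kept probe sets. At an unadjusted p under 0.05 there were 8 of the 16, in 5 of the 6 genes, against 22.9% of all kept probe sets. With each array centred on the median of its kept probe sets the median of all was -0.0049 and that of the members 0.14, with 14 of 16 higher against 48.9% of all. After quantile normalization was applied again the members had a median of 0.13, with 12 of 16 higher against 49.1% of all. None of the 16 kept member probe sets separated all arthritic from all non-arthritic mice, where 10.4% of all kept probe sets were higher in every arthritic mouse. Within the age classes the member medians lay closer to those of all kept probe sets, as given below. The 16 probe sets stand for 6 genes on the same arrays and are not independent.

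The mice aged 4 months or more allow the closest match in age, with arthritic mice of 4, 5, 9 and 9 months and non-arthritic mice of 5 and 7 months. None of the 16 probe sets passed here, where 0.576% of all kept probe sets did, and 3 had an unadjusted p under 0.05, against 21.7% of all. The members had a median log2 difference of 0.22, with 14 of 16 higher, against 0.08 and 65.2% over all kept probe sets. With each array centred on the median of its kept probe sets, the median was 0.14 with 14 of 16 higher, against 0.00039 and 50.1%. The smallest adjusted p was 0.103, for Timp3 (1419089_at), with a log2 difference of 0.32 (standard error 0.09). Mmp3 had 0.52 (standard error 0.19, adjusted p = 0.172 from limma) and Timp1 0.55 (standard error 0.25, adjusted p = 0.233), and in both genes all 4 arthritic mice were above both old non-arthritic mice. Groups separated in this direction in 4 of the 16 member probe sets, and in 27.4% of all kept probe sets.

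Within the age classes, too, no kept member probe set passed, against 0.0714% of all kept probe sets in old mice and 0.311% in young mice. At an unadjusted p under 0.05 there were 0 in old mice and 3 in young mice, where shares of 18.6% and 18.2% of all kept probe sets were found. The member median was 0.06 in old mice, with 13 of 16 higher, against 0.05 and 58.6% over all kept probe sets. In young mice it was 0.11, with 14 of 16 higher, against 0.09 and 69.3%. With each array centred on the median of its kept probe sets, both medians were 0.02, with 8 and 11 of 16 higher. All kept probe sets then had medians of 0.01 and -0.0004, with 52.2% and 49.9% higher. Among the kept probe sets the largest log2 difference in young mice was that of Mmp3, 0.53 (standard error 0.19, adjusted p = 0.216 from limma), and in old mice its difference was 0.32 (standard error 0.22, adjusted p = 0.447). The test of the difference between the effects of arthritis in old and in young mice passed for no member and for no kept probe set (0%), and for 0 of the 16 at an unadjusted p under 0.05, against 3.1% of all. For Mmp3 that difference was -0.20 (standard error 0.30), and for Timp1 0.25 (standard error 0.38). Both standard errors exceed the values. In old mice 4 of the 16 had every arthritic mouse above both non-arthritic mice (35.3% of all kept probe sets) and 2 had every one below (16.2%), and in young mice 3 had every arthritic mouse above (25.6%).

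The question of age was put to the non-arthritic mice first, as old against young. All 16 kept probe sets had a lower fitted value in old mice, with a median of -0.19 on the log2 scale, against 57.3% lower and a median of -0.02 over all kept probe sets. None passed the threshold, nor did any other probe set (0%). At an unadjusted p under 0.05 there were 4 of the 16, in Timp1 and Timp3, beside 3.19% of all kept probe sets. In 7 of the 16, namely Timp1, 3 of Timp2 and 3 of Timp3, both old mice were below all 4 young mice, which was the case for 7.77% of all kept probe sets. The proteases overlapped in all kept probe sets. Dim Mmp13, in the fit without a filter, also had both old mice below all 4 young mice. Its log2 difference was -0.85 (standard error 0.21, unadjusted p = 0.00197 and adjusted p = 0.998 from limma). Signals of the Timp3 probe set 1419089_at were 9.89 and 10.01 in the old mice, against 10.09 to 10.31 in the young mice (log2 difference -0.27, standard error 0.09, adjusted p = 0.997 from limma).

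With all 10 mice and arthritis in the fit, the slope per month was below 0 in all 16 kept probe sets, with a median of -0.05, against 60.1% and -0.01 over all kept probe sets. These slopes come from the same fit as the values at equal age, so they are not separate results. No member passed, with adjusted p-values of 0.466 or more from limma, and 0.0042% of all kept probe sets did. An unadjusted p under 0.05 was found in 11 of the 16, in every kept gene except Mmp3, and in 9.98% of all kept probe sets. The steepest slopes of kept probe sets were those of Timp1, at -0.16 (standard error 0.04), Mmp2, at -0.10 for both probe sets (standard error 0.04 each), and Timp3 (1449335_at), at -0.09 (standard error 0.02). Dim Mmp13 had -0.16 in the fit without a filter (standard error 0.04, adjusted p = 0.46 from limma). All 16 slopes were also below 0 with arrays centred in either way, and 15 were after quantile normalization was applied again. Without single mice the slope of Timp1 reached -0.21, which was found without young arthritic replicate 2.

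**Figure D4:**
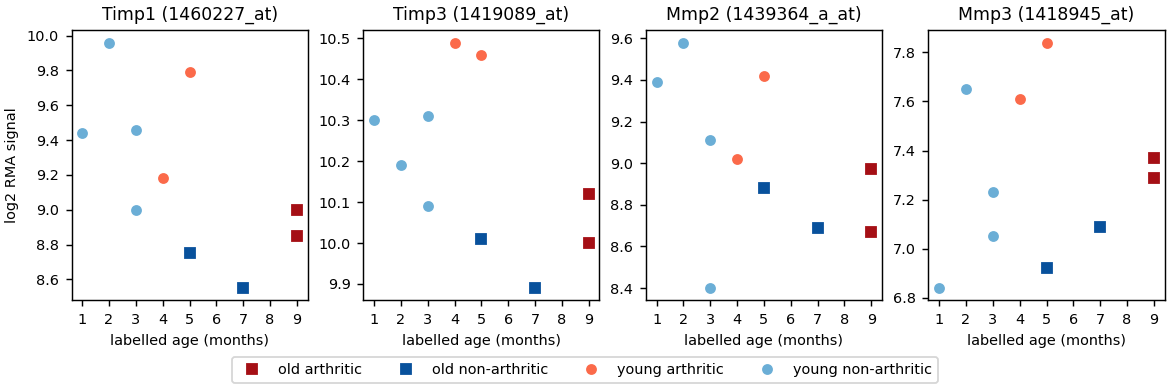
Log2 RMA signal (y-axis) against labelled age in months (x-axis) for 1 probe set each of Timp1, Timp3, Mmp2 and Mmp3, with old mice as squares, young mice as circles, arthritic mice in red tones and non-arthritic mice in blue tones. Both old non-arthritic mice lie below all 6 young mice in Timp1, 1 old arthritic mouse overlaps the lowest young mouse there, and old and young mice overlap in Mmp3.

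Single mice set the ends of the range in many members. Young arthritic replicate 1 was the highest array in 8 of the 16 kept probe sets and in 11.6% of all kept probe sets. Old non-arthritic replicate 1 was the lowest in 8 of the 16 and in 12.9% of all. Between genes, Pearson correlations over the 10 arrays ran from 0.26 (Mmp3 with Timp2) to 0.88 (Timp1 with Timp3), and those with Mmp3 were 0.62 at most. They are given as descriptions, since the arrays share the differences in age and arthritis described above.

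The 3 genes most like each member over the 10 arrays were found among 11870 kept named genes. For Mmp2 they were Fbln2 (fibulin 2, r = 0.939), the oncostatin M receptor gene Osmr (0.930) and the collagen VI chain Col6a2 (0.922). For Mmp14 they were Mrc2, a collagen uptake receptor (0.961), Cyp1b1 (0.929) and Slc6a8 (0.924). For Timp2 they were Fstl1 (0.981), P3h3, a collagen prolyl hydroxylase (0.953), and Dlg3 (0.950). For Timp3 they were Stx4a (0.964), Htra3 (0.930) and Sparcl1 (0.921), and for Timp1 Atp6v0d2 (0.892), Stx4a (0.885) and Timp3 (0.881). Mmp3 had Cdk6 (0.948), Ubash3b (0.947) and Heatr5a (0.943). Spearman correlations of these pairs were 0.855 to 1.000, and without old arthritic replicate 2 the Pearson correlations were 0.879 to 0.978. The pairs were picked as the highest of all, so no p is given.

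Other genes of matrix turnover were taken from lists and described by counts. None of the kept genes of 4 lists passed in any of the 7 comparisons. Of the other MMPs 5 of 16 listed genes were kept, with a median log2 difference at equal age of 0.12 against 0.11 over all kept genes. The macrophage elastase Mmp12 had the largest value, 1.34 (standard error 0.36, adjusted p = 0.0769 from limma), with log2 signals of 8.77 and 8.96 in old arthritic mice, against 7.98 and 8.07 in old non-arthritic mice, and 10.45 and 9.22 in young arthritic mice, against 8.81, 8.59, 9.91 and 9.06 in young non-arthritic mice. The young groups overlapped.

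Of the inhibitors, activators and receptors of these proteases 14 of 20 listed genes were kept, with a median of 0.20 at equal age. The urokinase receptor gene Plaur lay at 9.45 to 9.86 in arthritic mice and at 8.95 to 9.43 in non-arthritic mice, with no overlap. Of all kept probe sets 10.4% were higher in every arthritic mouse. The log2 difference of Plaur at equal age was 0.62 (standard error 0.15, adjusted p = 0.057 from limma). The thrombospondin gene Thbs1 had 0.74 (standard error 0.20, adjusted p = 0.0729), the plasminogen activator inhibitor gene Serpinb2 0.85 (standard error 0.29, adjusted p = 0.129) and the proprotein convertase gene Pcsk6 -0.28 (standard error 0.08, adjusted p = 0.0869). Of the ADAM and ADAMTS proteases 10 of 15 were kept, with a median of 0.03. Adam8, a myeloid sheddase, had 0.47 (standard error 0.12, adjusted p = 0.0694), and Adam17, Adamts1 and Adamts5 had adjusted p-values of 0.28 to 0.496. Of the matrix substrates 22 of 26 were kept, with a median of 0.08 at equal age, where 15 were higher and 7 lower. Within the age classes most were lower with arthritis. In old mice 18 were lower and 4 higher (median -0.12, against 0.07 over all kept genes). In young mice 14 were lower and 8 higher (median -0.03, against 0.11). At equal age Fmod had 0.28 (standard error 0.11, adjusted p = 0.165 from limma), and Fn1, Nid1 and Lamc1 had adjusted p-values of 0.55 to 0.579. With age in months 21 of these 22 substrates had a slope below 0, with a median of -0.05, against -0.01 over all kept genes.

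Cell type markers placed these signals in a whole spleen. B cell, T cell and macrophage markers were bright in every mouse, as shown by Cd79a at 12.41 to 12.94, Cd3e at 10.79 to 11.22 and Spic, a regulator of red pulp macrophages, at 11.73 to 12.07 on the log2 scale. The mean of 10 kept fibroblast and reticular cell markers was 9.91 to 10.05 in old arthritic mice, against 10.12 to 10.20 in old non-arthritic mice, and 10.25 to 10.35 in young arthritic mice, against 10.04 to 10.31 in young non-arthritic mice. The mean of 10 neutrophil markers was 13.35 to 13.72 in old arthritic mice, against 12.22 to 12.40 in old non-arthritic mice, and 13.37 to 14.04 in young arthritic mice, against 12.70 to 13.64 in young non-arthritic mice. The mean of 12 macrophage markers was 11.74 to 11.76 in old arthritic mice, against 11.85 to 11.95 in old non-arthritic mice, and 11.94 to 12.01 in young arthritic mice, against 11.80 to 11.83 in young non-arthritic mice. It did not overlap in either age class, and was lower with arthritis in old mice and higher in young mice. The mean of 9 endothelial markers was 9.35 to 9.59 in old arthritic mice, against 9.47 to 9.48 in old non-arthritic mice. In young mice it was 9.57 to 9.62 in arthritic mice, against 9.41 to 9.60 in non-arthritic mice. Capsule mesothelium markers, of which 8 of 10 were kept and Krt18 and Muc16 were below every median, averaged 7.19 to 7.54 in old arthritic mice, against 7.75 to 7.98 in old non-arthritic mice, and 7.92 to 7.99 in young arthritic mice, against 7.78 to 8.26 in young non-arthritic mice. The mean of 8 megakaryocyte and platelet markers was 11.19 to 11.35 in old arthritic mice, against 10.86 to 10.89 in old non-arthritic mice, and 11.59 to 11.96 in young arthritic mice, against 10.99 to 11.58 in young non-arthritic mice, with no overlap in either age class. The mean of 8 erythroid markers was 12.19 to 12.23 in old arthritic mice, against 11.92 to 12.02 in old non-arthritic mice, and 11.82 to 12.04 in young arthritic mice, against 10.87 to 11.87 in young non-arthritic mice. Of 10 adipose markers 4 were kept, and Lep, Cidec, Cidea and Ucp1 were below every median. Their mean was 7.85 to 8.73 in old arthritic mice, against 8.10 to 8.72 in old non-arthritic mice, and 8.69 to 8.79 in young arthritic mice, against 7.72 to 8.38 in young non-arthritic mice. The part of these cells in the values of the members was not tested.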

How the data were processed

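Spleen RNA of 10 PG-immunized mice was hybridized to 1 Affymetrix array each. Log2 signals per probe set were deposited by the authors, made with RMA by the submitters' processing notes, whose version the sources used here do not give. The paper does not describe the arrays. Of 45101 rows, 64 control rows were left out, and of the other 45037 probe sets 34945 carry 1 symbol in the platform table, 932 several and 9160 none. Only those with 1 were named.

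The 23805 probe sets that exceeded the array median in 2 or more arrays were fitted by limma 3.58.1 (R 4.3.3, lmFit with eBayes) with 4 group means (5 comparisons) or with age in months and arthritis status (2 comparisons), and adjusted by Benjamini-Hochberg over all of them. The fits were tested on simulated data. Precision is limited by the number of arrays, and p-values reflect only the spread between mice. Where 1 value per gene was needed, the kept probe set brightest on average was used. Members and lists were chosen with earlier results of these data known. From each list up to 4 genes with the smallest p at equal age were named, and Timp3 (1419089_at) was followed after its value was seen. Alternatives covered the filter, scaling, trend, array weights, replicate block, fewer groups, averaging the probe sets of a gene and omission of each array. Promoter sequences are from RefSeq, and figures were drawn with matplotlib 3.10.9.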

Additional observations from a re-analysis of the deposited data

Results flagged for a closer look

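In the brightest probe set of Mmp14 (1448383_at), young non-arthritic replicate 1 stood apart from the other 3 mice of its group, at 9.34 on the log2 scale. The gap of this value to the next was 0.881 of the range of the group. Of 20 member probe sets looked at this way 1 stood out, and chance gives about 1 in 20.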

How the results depend on the processing

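The count of member probe sets past the threshold was 0 in all comparisons but that at equal age, where it was 1. At equal age it was 4 of 20 with no filter, where 12.2% of all probe sets passed. With array weights it was 6 of 16, where 4857 of the 23805 kept probe sets passed. It was 0 after quantile normalization was applied again, with each array centred on its median and with the replicate block. It was also 0 with each array centred on the median of its kept probe sets (added after the data were seen). With no filter it was 1 at 4 months or more, 1 in old mice and 2 in young mice, from Mmp13 and Mmp19. Of all probe sets 8.87%, 5.06% and 7.07% passed there. With array weights it was 1 at 4 months or more, where 1454 of the 23805 kept probe sets passed. Without each mouse in turn it ran from 0 to 1 at equal age and stayed at 0 in the other 6 comparisons. Same-numbered mice deviated from their group means with correlations of -0.53 to 0.36, and the numbers were not taken as pairs. With the replicate block the adjusted p of Timp3 (1419089_at) at equal age was 0.0903 (log2 difference 0.38), and Mmp2 had a slope of -0.04 per month, against -0.10 without it, and an old minus young difference of 0.03, against -0.33. Over all probe sets tested, calls at equal age were 538 of 23805, against 5475 of 45037 with no filter and 198 of 18108 with a stricter filter. Over the same 23805 they were 177 after quantile normalization, 274 and 166 with the centrings, 4857 with array weights and 29 with the replicate block. Leaving out 1 mouse gave 0 (old non-arthritic replicate 1), 26 (old non-arthritic replicate 2), 17 (young arthritic replicate 1), 2 (young arthritic replicate 2), 268 (young non-arthritic replicate 3), 872 (young non-arthritic replicate 4) or 382 to 724 (each of the other 4). At 4 months or more 137 calls became 3997 with no filter, 1454 with array weights and 0 to 70 under the other settings, and 2 to 1765 without single mice (1765 without old arthritic replicate 1). In old mice 17 became 2280 with no filter and 0 to 32 otherwise, and 0 to 1532 without single mice (1532 without old arthritic replicate 1). In young mice 74 became 3186 with no filter, 533 with array weights and 0 to 57 otherwise, and 0 to 84 without single mice. Of the tests of single members, 387 kept their side of the threshold and moved by less than 1 standard error, where uncalled, under the alternatives other than leaving out a mouse, 4 lost their call, all for Timp3 (1419089_at), 2 gained one with array weights (Mmp3, adjusted p = 0.0231, and Timp3, adjusted p = 0.0223) and 10 uncalled values shifted beyond 1 standard error. The mean of both Mmp2 probe sets gave 0.08 at equal age. The cause of these changes was not tested, except that other probe sets or mice entered the fit.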
